A study of Homo sapiens with 10 samples.

Results

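The genes described here are 34 named genes of glycolysis and of the response to low oxygen, read as the rows of the count table whose gene symbol matched a listed name. All 34 were found among the 25370 genes of the table, and 33 passed the filter on low counts. They were measured by RNA sequencing of polyadenylated RNA from PEO1 cells, a human ovarian cancer cell line with a truncating mutation of BRCA2, and from 4 veliparib-resistant clones made from it. Veliparib (ABT888) inhibits PARP enzymes. The clones, ABTr1 to ABTr4, lived under 40 µM of the drug for 6 months, with a break of 4 to 5 days just before RNA collection, and the labels give parental PEO1 cells no such treatment. Both kinds of cell grew in the same serum-containing medium with insulin and glutamine, and the labels name no oxygen level or glucose concentration. Each group had 2 libraries, and each resistant group is a single clone, numbered here by library name because the sample descriptions number the clones differently. The series text speaks of independent experiments without tying them to libraries, so p-values here measure the spread between these libraries.

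Glycolysis splits glucose into pyruvate: an early phase spends ATP to trap and split the sugar, and a later phase returns ATP and NADH before lactate dehydrogenase turns pyruvate into lactate. Many of these genes are targets of the hypoxia-inducible factors HIF1A and EPAS1, which bind a short DNA core, the hypoxia response element. With oxygen present, prolyl hydroxylases encoded by EGLN1 and EGLN3 mark the HIF proteins for destruction through the VHL ubiquitin ligase, and EGLN3 is itself a HIF target. Many tumour cells run glycolysis at a high rate even with oxygen present.

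Library totals ran from 20640602 to 55488566 reads, so genes above a few CPM rest on many reads. CPM are counts scaled by library total and TMM factor. Libraries with the same replicate number deviated from their group means together, with correlations across genes of 0.28 to 0.731 over the 10 pairs of groups. A second fit therefore carried the replicate number as a block. For the 33 tested genes its values stand beside a result in the mean of the clones where they change the call. For single clones, only some of the calls changed by this fit are named. Counts of alternatives below are out of 14: this fit, DESeq2, limma-voom, no filter on low counts, and the fit without each of the 10 libraries in turn. The epithelial marker EPCAM was at 543 ± 0.586 CPM in PEO1 (SD, n = 2 libraries) and 109.9 ± 36.4 (SD, n = 4 clones) over the clones, with a log2 difference of -2.37 ± 0.18, adjusted p = 0.00018, while the ovarian lineage marker PAX8 was at 124 ± 44.5 CPM in PEO1 (SD, n = 2 libraries) and 137 ± 36.7 (SD, n = 4 clones) in the clones. Of 9 epithelial markers 8 fell in the clones, and their summed level was 6795 to 10390 CPM in parental and 2107 to 2571 in clone libraries. The fibroblast markers summed to 8.28 to 8.63 CPM in parental and 1.93 to 16.7 in clone libraries, with DCN, LUM and COL3A1 at 0 reads in all 10. Leukocyte markers summed to 39.8 to 52.6 and 72.3 to 145 CPM, with PTPRC at most 0.236 CPM in any library. CD68, a macrophage and lysosome marker that made up most of this sum, rose from 32.6 ± 2.06 CPM in PEO1 (SD, n = 2 libraries) to 98.1 ± 26.6 (SD, n = 4 clones) in the clones (log2 1.55 ± 0.27, adjusted p = 0.0065), and the adjusted p was 0.052 and 0.057 without parental replicate 1 or 2. Endothelial markers summed to 15.5 to 62.3 and 2.10 to 16.4 CPM, with PECAM1 at a mean of 0.383 and 0.682 CPM. CDH5, the endothelial cadherin, fell from 38.1 ± 33.2 CPM in PEO1 (SD, n = 2 libraries) to 3.04 ± 3.41 (SD, n = 4 clones) in the clones (log2 -4.78 ± 1.00, adjusted p = 0.015), and without parental replicate 2 the difference was -3.40, adjusted p = 0.16. The other members of these 2 lists named next went the other way, except CD79A, which was higher in the clones as CD68 was. VWF went from a mean of 0.257 CPM in PEO1 to 0.838 in the clones, KDR from 0.205 to 1.04 and EMCN from 0 to 0.0987. CD14 went from 13.4 to 7.27 CPM, while CD79A went from 0.138 to 0.230. None of these was called in the mean of the clones. The median log2 difference was 1.20 over the 4 tested endothelial markers. CD68, CDH5 and these other members were named after their values were seen. The part of these marker shifts in the results below was not tested, and in bulk RNA fewer cells of a type and less RNA per cell cannot be told apart.

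When the 4 clones were averaged and set against PEO1, 5 of the 33 tested genes passed an adjusted p of 0.05 in edgeR's quasi-likelihood test. That is 15.2% of them, beside 16.0% of all 16490 tested genes. ENO2 and PFKL rose, and EGLN3, SLC16A3 and GAPDH fell. Among all genes, 7.17% were called higher and 8.79% lower. The median log2 difference was 0.09 over the 33 genes and 0.02 over all tested genes. With the replicate block 12 of the 33 passed, 36.4% beside 34.6% of all genes (16.3% higher, 18.2% lower). The additional ones were HK1, PFKP, PFKFB3, PDK3 and NDRG1, all higher in the clones, and GPI and LDHB, both lower. In 4 genes, PFKL, GAPDH, ENO2 and EGLN3, all 8 clone libraries lay on one side of both parental libraries. Such a separation was seen in 27.0% of all tested genes.

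**Figure D1:**
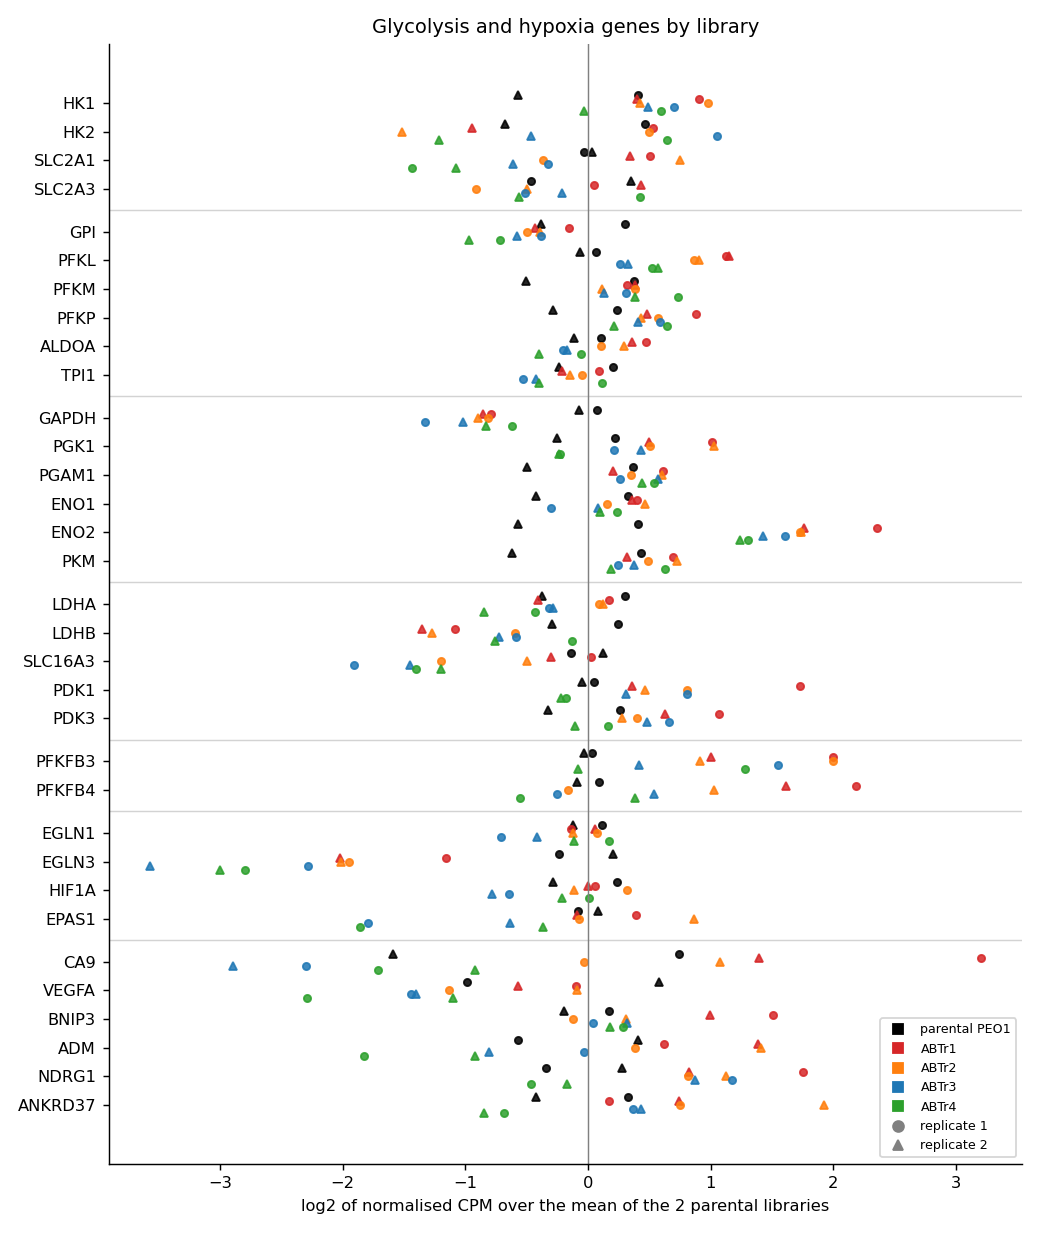
Level of each of the 33 tested genes in the 10 libraries as the log2 ratio of its normalised CPM to the mean of the 2 parental libraries, with 1 point per library coloured by group, circles for replicate 1, triangles for replicate 2, and genes in rows by role. The 8 clone points of EGLN3 lie left of both parental points and those of ENO2 right of them, while the points of CA9 lie on both sides.

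Because hypoxia-responsive promoters carry the core ACGTG or GCGTG, the promoters of the genes were read for these letters on both strands, in a window of 300 bases from 250 before to 50 after the start (RefSeq, GRCh38.p14). Of the 34 genes 31 matched a promoter, and VEGFA, SLC2A3 and NDRG1 did not. Of those, 23 (74.2%) held either core, against 60.9% of 11535 promoters of tested genes and 55.3% of 15546 promoters of genes in the table. ACGTG alone was in 13 (41.9%), against 25.8% of tested genes. The E-box CACGTG, whose letters contain ACGTG on both strands, was in 5 (16.1%), against 9.67%. The genes' promoters were also richer in G and C, with a median of 70.0% against 64.7%. The following 5 sequences are the 250 bases up to the start, 5′ to 3′ on the gene's strand, and capitals mark the core on either strand. They belong to genes that passed in the mean of the clones (ENO2, PFKL, GAPDH) or were highest in ABTr1 among the clones (CA9, BNIP3). CA9 and BNIP3 were picked by hand. GPI, ALDOA, ALDOC, ENO1, PDK3, PFKFB3, PFKFB4 and ADM were also highest in ABTr1 with a core upstream and are not shown. Holding a core upstream was a condition of being shown, so EGLN3 and SLC16A3, which also passed, are left out.
ENO2, chr12:6914330-6914579, strand +: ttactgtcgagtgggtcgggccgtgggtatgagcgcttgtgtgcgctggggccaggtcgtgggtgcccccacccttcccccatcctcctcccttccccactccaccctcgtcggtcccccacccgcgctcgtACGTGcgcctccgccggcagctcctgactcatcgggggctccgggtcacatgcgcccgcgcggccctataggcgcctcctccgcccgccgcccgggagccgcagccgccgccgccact
PFKL, chr21:44299803-44300052, strand +: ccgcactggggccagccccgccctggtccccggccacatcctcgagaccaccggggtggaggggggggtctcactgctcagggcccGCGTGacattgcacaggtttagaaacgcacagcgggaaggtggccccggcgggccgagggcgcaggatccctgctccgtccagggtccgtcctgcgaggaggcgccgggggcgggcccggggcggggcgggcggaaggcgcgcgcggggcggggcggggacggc
GAPDH, chr12:6535014-6535263, strand +: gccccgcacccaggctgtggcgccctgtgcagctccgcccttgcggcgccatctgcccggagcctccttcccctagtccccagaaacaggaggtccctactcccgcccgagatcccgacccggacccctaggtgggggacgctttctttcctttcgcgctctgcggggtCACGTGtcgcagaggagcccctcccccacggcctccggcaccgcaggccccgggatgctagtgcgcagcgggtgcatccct
CA9, chr9:35673678-35673927, strand +: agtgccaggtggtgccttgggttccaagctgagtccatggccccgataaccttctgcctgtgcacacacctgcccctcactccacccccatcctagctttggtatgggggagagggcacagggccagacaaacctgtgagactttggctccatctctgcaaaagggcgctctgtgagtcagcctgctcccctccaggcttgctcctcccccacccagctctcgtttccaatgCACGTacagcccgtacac
BNIP3, chr10:131981924-131982173, strand -: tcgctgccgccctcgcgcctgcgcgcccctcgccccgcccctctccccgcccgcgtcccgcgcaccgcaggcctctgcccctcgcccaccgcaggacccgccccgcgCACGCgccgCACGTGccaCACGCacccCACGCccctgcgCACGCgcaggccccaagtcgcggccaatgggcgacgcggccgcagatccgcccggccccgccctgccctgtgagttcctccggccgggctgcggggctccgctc
ENO2 held 1 core with its first letter 118 bases before the start, PFKL 1 at 164, and CA9 1 at 18. GAPDH held overlapping cores at 81 and 80, which together read as the E-box CACGTG. BNIP3 held 6 cores, with first letters at 143, 134, 133, 125, 116 and 104 bases before the start. EGLN3 and SLC16A3, both lower in the clones, held no copy in the window, which says only that these letters are not there. Among the 5 shown, the cores thus lie upstream of genes that rose (ENO2, PFKL), of one that fell (GAPDH) and of 2 that did not pass in the mean of the clones (CA9, BNIP3). Of all 23 genes with a core in the window, only ENO2, PFKL and GAPDH passed there without the replicate block, and ALDOC was not tested.

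The 4 genes that bring glucose in and trap it, the transporters SLC2A1 and SLC2A3 and the hexokinases HK1 and HK2, did not pass in the mean of the clones in edgeR's quasi-likelihood test, with 0 at an unadjusted p under 0.05 and 0 called by DESeq2 and 0 by limma-voom, beside 31.1%, 24.7% and 14.5% of all genes. SLC2A1 (GLUT1), the basal glucose transporter, was at 165 and 173 CPM in PEO1, 239.6 and 214 in ABTr1, 131 and 284 in ABTr2, 135 and 111 in ABTr3 and 62.6 and 80.4 in ABTr4, replicate 1 first here and below. The libraries of ABTr4 were the lowest of all 10, and those of ABTr1 were above both parental libraries. In ABTr4 the log2 difference from parental was -1.24 ± 0.36, adjusted p = 0.063, and with the replicate block -1.25 with an adjusted p of 0.012. SLC2A3 (GLUT3), a high-affinity transporter, was nearly silent, at no more than 0.369 CPM in any library. HK1, the hexokinase of most tissues, was at 154 and 78.2 CPM in PEO1, 217 and 153 in ABTr1, 229 and 156 in ABTr2, 188 and 163 in ABTr3 and 175 and 113 in ABTr4. Parental replicate 2 was the lowest library of all, parental replicate 1 lay inside the clone range, and the log2 difference of 0.58 ± 0.32, adjusted p = 0.26 became 0.63 ± 0.17, adjusted p = 0.016, with the block. HK2, the inducible hexokinase raised in many tumours, was at 71.4 and 32.4 CPM in PEO1, 74.7 and 27.0 in ABTr1, 73.3 and 18.1 in ABTr2, 108 and 37.7 in ABTr3 and 81.3 and 22.4 in ABTr4. HK2 was low in replicate 2 of every group, parental and clone alike, and its mean log2 difference of 0.07 ± 0.69, adjusted p = 0.96 took either sign, from -0.40 to 0.72, as single libraries were left out.

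Of the 6 tested genes of the steps that spend ATP, GPI, PFKL, PFKM, PFKP, ALDOA and TPI1, only PFKL passed without the block. PFKL encodes the liver-type subunit of phosphofructokinase, the committing step of glycolysis, and lies at chr21:45719917-45747264 in hg19, the build of the count table. It was at 87.6 and 80.2 CPM in PEO1, 183 and 186 in ABTr1, 153 and 157 in ABTr2, 100.3 and 105 in ABTr3 and 120.2 and 125 in ABTr4. Replicates were close in every group, and the lowest clone library (ABTr3 replicate 1) was above the higher parental one. The means were 83.9 ± 5.20 CPM in PEO1 (SD, n = 2 libraries) and 141 ± 36.0 (SD, n = 4 clones) in the clones, and the fit gave a 1.64-fold higher level, log2 0.71 ± 0.16, adjusted p = 0.021. The call was lost without either parental library (adjusted p = 0.076 and 0.15) or either ABTr1 library (adjusted p = 0.055 and 0.056), and with no filter on low counts (adjusted p = 0.054), while the log2 difference stayed within 0.65 to 0.74. Among single clones PFKL passed in ABTr1 (1.14 ± 0.20, adjusted p = 0.014) and ABTr2 (0.88 ± 0.20, adjusted p = 0.037), and with the block also in ABTr4 (0.55, adjusted p = 0.033). PFKL in ABTr1 was lost without parental replicate 2 or either ABTr1 library, with adjusted p up to 0.095. In ABTr2 it was lost without any one of the 10 libraries and with no filter, up to 0.16.

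The other two phosphofructokinase subunits did not pass without the block. PFKP, the platelet type, was at 165 and 115 CPM in PEO1 and 162 to 257, with a median of 201, in the 8 clone libraries, and its log2 difference was 0.54 ± 0.23, adjusted p = 0.15. With the block it passed, at 0.55 ± 0.15, adjusted p = 0.016. PFKM, the muscle type, was at 121 and 66.2 CPM in PEO1 and 102 to 156, with a median of 119, in the 8 clone libraries, and its exons overlap those of SENP1, so reads of the pair may be mixed. Its difference was 0.35 ± 0.25, adjusted p = 0.38, and it ranged from -0.02 to 0.82 as single libraries were left out. GPI, which turns glucose 6-phosphate into fructose 6-phosphate, was at 655 and 406 CPM in PEO1 and 271 to 476, with a median of 385, in the 8 clone libraries, log2 -0.51 ± 0.22, adjusted p = 0.15, and with the block fell by 0.49 ± 0.16 on the log2 scale, adjusted p = 0.038. ALDOA, the aldolase that splits fructose 1,6-bisphosphate, was at 1123 and 961 CPM in PEO1 and 791 to 1443, with a median of 1061, in the 8 clone libraries, log2 0.05 ± 0.20, adjusted p = 0.89. TPI1, which interconverts the resulting triose phosphates, was at 994 and 730.1 CPM in PEO1 and 596 to 931, with a median of 761, in the 8 clone libraries, log2 -0.19 ± 0.22, adjusted p = 0.62. Both parental libraries lay within the clone range for ALDOA. The brain aldolase ALDOC, left untested, had 14 reads in the parental and 22 in the clone libraries together, and no library above 0.387 CPM.

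In the phase that returns ATP, GAPDH fell and ENO2 rose, and the other 4 tested genes did not pass. GAPDH, at chr12:6643571-6647541, oxidises glyceraldehyde 3-phosphate and yields NADH. It was at 4876 and 4397 CPM in PEO1, 2685 and 2559 in ABTr1, 2632 and 2496 in ABTr2, 1849 and 2287 in ABTr3 and 3014 and 2602 in ABTr4. The 8 clone libraries lay between 1849 and 3014 CPM, all below both parental ones. The means were 4636 ± 339 CPM in PEO1 (SD, n = 2 libraries) and 2515 ± 316 (SD, n = 4 clones) in the clones, a 1.86-fold lower level in the fit (log2 -0.89 ± 0.20, adjusted p = 0.019). The direction held without any single library, at -0.97 to -0.85, and the adjusted p was above 0.05 without parental replicate 1 (adjusted p = 0.076), parental replicate 2 (adjusted p = 0.08) or ABTr1 replicate 2 (adjusted p = 0.053). Among single clones it passed in ABTr3 (-1.17 ± 0.27, adjusted p = 0.04), and with the block in ABTr1 (-0.82, adjusted p = 0.012), ABTr2 (-0.85, adjusted p = 0.013) and ABTr4 (-0.72, adjusted p = 0.021) too. GENCODE lists 62 pseudogenes named after GAPDH, and whether reads with several matches were counted is not given in the sources used here. GAPDH is often used as a reference gene for expression.

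ENO2, at chr12:7023614-7032859, encodes the gamma enolase known from neurons and induced by low oxygen in many cells. It was at 26.3 and 13.4 CPM in PEO1, 101 and 67.0 in ABTr1, 65.7 and 66.1 in ABTr2, 60.3 and 53.1 in ABTr3 and 48.8 and 46.7 in ABTr4. All 8 clone libraries were above both parental libraries, with the smallest value, 46.7 CPM, in ABTr4 and the largest in ABTr1. The means were 19.8 ± 9.13 CPM in PEO1 (SD, n = 2 libraries) and 63.7 ± 15.6 (SD, n = 4 clones) in the clones. The fit gave a 3.14-fold higher level, log2 1.65 ± 0.30, adjusted p = 0.0083, and the adjusted p rose to 0.059 only when parental replicate 2 was left out, where the difference was 1.24. By clone, ENO2 passed in ABTr1 (2.09 ± 0.35, adjusted p = 0.012), ABTr2 (1.73 ± 0.35, adjusted p = 0.026) and ABTr3 (1.52 ± 0.35, adjusted p = 0.037), and stood at 1.27 ± 0.34, adjusted p = 0.053, in ABTr4, where it passed with the block (adjusted p = 0.0045). Without parental replicate 2 none of these clone calls held. The ABTr1 call was also lost without ABTr1 replicate 1, the ABTr2 call without either ABTr2 or ABTr3 library, and the ABTr3 call without either library of ABTr1, ABTr3 or ABTr4, with adjusted p up to 0.16.

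The remaining enzymes of this phase did not pass in the mean of the clones. ENO1, the main enolase, was at 2644 and 1570 CPM in PEO1 and 1711 to 2902, with a median of 2414, in the 8 clone libraries, log2 0.19 ± 0.26, adjusted p = 0.67. Per length its level was 1425 TPM in parental cells and 1920 in the clones, against 18.1 and 68.8 TPM for ENO2. TPM were scaled to each library's own sum of reads per length, without TMM factors. Their differences between groups therefore do not match those in CPM. PGK1, which makes ATP from 1,3-bisphosphoglycerate, was at 800.1 and 578 CPM in PEO1, 1386 and 974 in ABTr1, 978 and 1401 in ABTr2, 797 and 927 in ABTr3 and 589 and 584 in ABTr4. Its ABTr1 and ABTr2 libraries were all higher than the parental ones, those of ABTr4 were not, and the mean difference was 0.41 ± 0.25, adjusted p = 0.3, while ABTr1 alone passed with the block (0.78, adjusted p = 0.046). PGAM1, a phosphoglycerate mutase, was at 495 and 272 CPM in PEO1 and 442 to 587, with a median of 540.2, in the 8 clone libraries, log2 0.45 ± 0.27, adjusted p = 0.29. PKM, the pyruvate kinase of most tumours, whose splice forms were summed in the gene count, was at 1682 and 809 CPM in PEO1 and 1417 to 2053, with a median of 1685, in the 8 clone libraries, log2 0.47 ± 0.31, adjusted p = 0.34. For PGAM1, PKM and ENO1 parental replicate 2 was far below parental replicate 1. Of the 33 genes, 25 were lower in parental replicate 2, with a median ratio of 0.734. Neither value was computed over all genes.

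**Figure D2:**
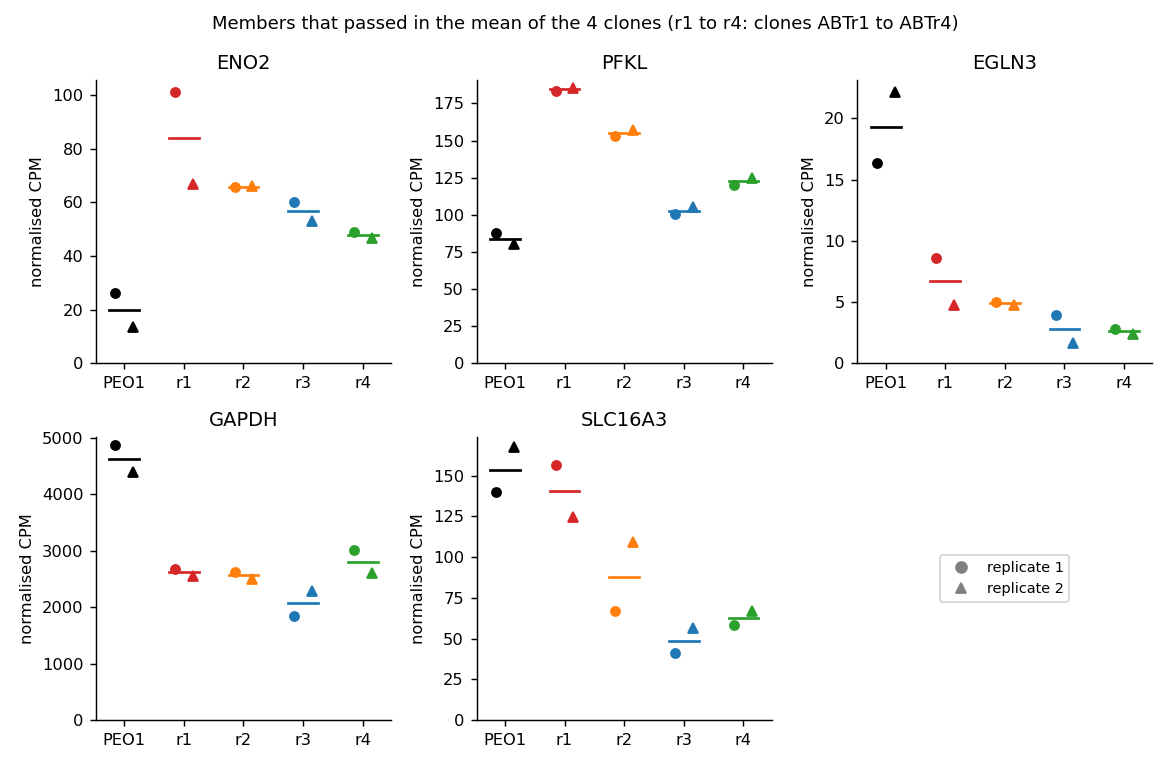
Normalised CPM of the genes that passed with the 4 clones averaged, 1 panel per gene, with circles for replicate 1, triangles for replicate 2, a line at the mean of the libraries of a group, and r1 to r4 for ABTr1 to ABTr4. ENO2, PFKL, GAPDH and EGLN3 show no overlap between parental and clone libraries, whereas SLC16A3 in ABTr1 (156 and 125 CPM) overlaps the parental range.

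Of the 5 genes that decide between lactate and mitochondrial use of pyruvate, SLC16A3 fell without the block and LDHB with it. SLC16A3 (MCT4), at chr17:80186282-80197375, exports lactate from highly glycolytic cells and is a HIF target. It was at 139.9 and 168 CPM in PEO1, 156 and 125 in ABTr1, 67.0 and 109 in ABTr2, 41.1 and 56.2 in ABTr3 and 58.2 and 67.1 in ABTr4. The libraries of ABTr1 stayed near the parental level, and those of ABTr3 and ABTr4 and replicate 1 of ABTr2 were the lowest, at 41.1 to 67.1 CPM. The means were 154 ± 19.7 CPM in PEO1 (SD, n = 2 libraries) and 85.0 ± 40.5 (SD, n = 4 clones) in the clones, a 1.96-fold lower level in the fit (log2 -0.97 ± 0.22, adjusted p = 0.02). Without parental replicate 2 the difference was -0.84, adjusted p = 0.16. Among single clones it passed in ABTr3 (-1.66 ± 0.31, adjusted p = 0.019) and ABTr4 (-1.30 ± 0.30, adjusted p = 0.033), and with the block also in ABTr2 (-0.82, adjusted p = 0.031). The value in ABTr1 was -0.13 ± 0.30, adjusted p = 0.82. The ABTr3 call was lost without parental replicate 2 or either ABTr3 library, and the ABTr4 call without parental replicate 2 or either library of ABTr1 or ABTr4, with adjusted p up to 0.13 and 0.16.

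The lactate dehydrogenase subunits did not pass without the block. LDHB, the subunit favoured in oxidative tissues, was at 1253 and 861 CPM in PEO1, 500.0 and 414 in ABTr1, 698 and 437 in ABTr2, 705 and 638 in ABTr3 and 965 and 626 in ABTr4. Replicate 1 of ABTr4 lay between the parental libraries, and all other clone libraries lay below both. Its log2 difference was -0.79 ± 0.26, adjusted p = 0.071, and with the block -0.78 ± 0.15, adjusted p = 0.0027, where ABTr1 (adjusted p = 0.0022), ABTr2 (adjusted p = 0.0098) and ABTr3 (adjusted p = 0.046) passed as well. LDHA, the subunit that favours lactate production, was at 3363 and 2106 CPM in PEO1 and 1523 to 3076, with a median of 2219, in the 8 clone libraries, log2 -0.23 ± 0.26, adjusted p = 0.61. PDK1, a kinase that shuts pyruvate dehydrogenase off and a HIF target, was at 21.1 and 19.7 CPM in PEO1, 67.4 and 26.1 in ABTr1, 35.6 and 28.1 in ABTr2, 35.7 and 25.3 in ABTr3 and 18.0 and 17.5 in ABTr4. Replicate 1 of ABTr1 was far above the rest, ABTr4 was below both parental libraries, and the mean difference was 0.56 ± 0.34, adjusted p = 0.31, while ABTr1 passed with the block (1.10, adjusted p = 0.022). PDK3, a second such kinase, was at 30.4 and 20.2 CPM in PEO1 and 23.6 to 53.1, with a median of 34.3, in the 8 clone libraries, log2 0.45 ± 0.23, adjusted p = 0.22, and passed with the block (0.47 ± 0.16, adjusted p = 0.047).

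PFKFB3 and PFKFB4 make and remove fructose 2,6-bisphosphate, the strongest activator of phosphofructokinase. Neither passed in the mean in edgeR's quasi-likelihood test without the block. Of the 2, 1 was at an unadjusted p under 0.05, 1 was called by DESeq2 and 0 by limma-voom. The shares of all genes were 31.1%, 24.7% and 14.5%. PFKFB3 was at 30.7 and 29.4 CPM in PEO1, 119.6 and 60.2 in ABTr1, 119.6 and 56.6 in ABTr2, 87.8 and 40.0 in ABTr3 and 72.7 and 28.4 in ABTr4. Replicate 2 of ABTr4 was below both parental libraries, the other 7 clone libraries were above them, and in each clone replicate 1 was well above replicate 2. The log2 difference of 1.25 ± 0.50, adjusted p = 0.13 became 1.08 ± 0.24, adjusted p = 0.0064, with the block, with ABTr1, ABTr2 and ABTr3 passing singly (adjusted p = 0.0048, 0.007 and 0.039). PFKFB4 was at 5.48 and 4.84 CPM in PEO1, 23.4 and 15.8 in ABTr1, 4.60 and 10.5 in ABTr2, 4.33 and 7.50 in ABTr3 and 3.51 and 6.74 in ABTr4. ABTr1 stood above all other libraries, with a log2 difference from parental of 1.93 ± 0.52, adjusted p = 0.051, and 1.95, adjusted p = 0.0077, with the block.

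Among the oxygen-sensing genes EGLN3 fell and EGLN1, HIF1A and EPAS1 did not pass in the mean of the clones. EGLN3, at chr14:34393421-34420284, encodes the prolyl hydroxylase PHD3. It was at 16.4 and 22.1 CPM in PEO1, 8.63 and 4.74 in ABTr1, 4.98 and 4.78 in ABTr2, 3.96 and 1.62 in ABTr3 and 2.78 and 2.40 in ABTr4. The highest clone library, 8.63 CPM in ABTr1, was below the lower parental one. The means were 19.3 ± 4.06 CPM in PEO1 (SD, n = 2 libraries) and 4.24 ± 1.93 (SD, n = 4 clones) in the clones, a 4.90-fold lower level in the fit (log2 -2.29 ± 0.33, adjusted p = 0.0027). This was the only one of the 5 called genes that passed under all 14 alternatives, with log2 differences of -2.53 to -2.06 as single libraries were left out. By clone it passed in ABTr2 (-1.98 ± 0.48, adjusted p = 0.049), ABTr3 (-2.78 ± 0.50, adjusted p = 0.017) and ABTr4 (-2.89 ± 0.50, adjusted p = 0.012), and was at -1.53 ± 0.48, adjusted p = 0.079, in ABTr1, where it passed with the block (adjusted p = 0.013). The ABTr2 call was lost without either library of PEO1, ABTr1, ABTr2 or ABTr4, with adjusted p up to 0.18. The ABTr3 call was lost without parental replicate 2 or ABTr3 replicate 2, and the ABTr4 call without parental replicate 2 or either ABTr4 library, with adjusted p up to 0.11 and 0.081.

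EGLN1 (PHD2), the main oxygen sensor of the family, was at 91.8 and 78.0 CPM in PEO1 and 52.0 to 95.7, with a median of 78.4, in the 8 clone libraries, log2 -0.14 ± 0.18, adjusted p = 0.64. Per length EGLN1 stood at 26.1 TPM in parental cells and 28.3 in the clones, against 15.2 and 4.13 TPM for EGLN3. TPM carry no TMM factor, and the EGLN1 means in CPM were 84.9 in PEO1 and 77.8 in the clones. HIF1A was at 230.0 and 161 CPM in PEO1 and 114 to 244, with a median of 188, in the 8 clone libraries, log2 -0.17 ± 0.21, adjusted p = 0.63. Its lowest libraries were those of ABTr3, which passed with the block (-0.70, adjusted p = 0.023), and antisense genes share its exons, so part of its reads may be theirs. EPAS1 (HIF2A) was at 85.7 and 95.8 CPM in PEO1, 119 and 85.3 in ABTr1, 86.3 and 165 in ABTr2, 26.2 and 58.5 in ABTr3 and 25.1 and 70.2 in ABTr4. Both libraries of ABTr3 and ABTr4 were below the parental ones, ABTr2 replicate 2 was the highest, and the mean difference was -0.35 ± 0.42, adjusted p = 0.63. HIF activity is set largely by protein stability, which RNA levels do not measure.

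The 6 hypoxia-induced genes outside glycolysis went different ways in different clones. None passed in the mean in edgeR's quasi-likelihood test without the block. Of the 6, 1 was at an unadjusted p under 0.05, 0 were called by DESeq2 and 0 by limma-voom. Beside these stood 31.1%, 24.7% and 14.5% of all genes. NDRG1 had the smallest adjusted p of the 6 in that edgeR test, and it passed with the block. NDRG1, a stress-induced gene, was at 220.4 and 338 CPM in PEO1, 938 and 493 in ABTr1, 490.0 and 609 in ABTr2, 628 and 509 in ABTr3 and 203 and 248 in ABTr4. ABTr1 to ABTr3 lay above both parental libraries and ABTr4 near the lower one, and the mean difference was 0.76 ± 0.30, adjusted p = 0.12, or 0.76 ± 0.27, adjusted p = 0.048, with the block. BNIP3, which promotes removal of mitochondria, was at 92.1 and 71.5 CPM in PEO1, 232 and 163 in ABTr1, 75.3 and 102 in ABTr2, 84.2 and 102 in ABTr3 and 99.6 and 92.4 in ABTr4. It was raised in ABTr1, 2.42-fold (log2 1.27 ± 0.28, adjusted p = 0.027), and differed by 0.11, 0.19 and 0.23 on the log2 scale in ABTr2, ABTr3 and ABTr4. The ABTr1 call was lost without either parental (adjusted p = 0.054 and 0.14) or either ABTr1 library (adjusted p = 0.17 and 0.073), and GENCODE lists 39 pseudogenes named after BNIP3.

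CA9, the tumour hypoxia marker carbonic anhydrase IX, was at 6.60 and 1.32 CPM in PEO1, 36.4 and 10.4 in ABTr1, 3.87 and 8.36 in ABTr2, 0.804 and 0.532 in ABTr3 and 1.21 and 2.09 in ABTr4. Clone means spanned 35.0-fold, with ABTr1 the highest and ABTr3 the lowest, and the parental replicates themselves differed widely. The mean difference was -0.17 ± 0.63, adjusted p = 0.89, and it ranged from -0.90 to 1.39 as single libraries were left out. With the block CA9 passed as higher in ABTr1 (2.57, adjusted p = 0.024) and lower in ABTr3 (-2.45, adjusted p = 0.049). VEGFA, the angiogenic growth factor, was at 39.4 and 117 CPM in PEO1, 72.9 and 52.7 in ABTr1, 35.6 and 73.6 in ABTr2, 28.8 and 29.5 in ABTr3 and 16.0 and 36.4 in ABTr4. Parental replicate 2 was the highest library of all, and without it the log2 difference of -0.96 ± 0.43, adjusted p = 0.17 was 0.02. ABTr4 passed with the block (-1.54, adjusted p = 0.023). ADM, the vasodilator peptide adrenomedullin, was at 20.6 and 40.6 CPM in PEO1, 47.1 and 80.0 in ABTr1, 40.0 and 81.2 in ABTr2, 30.0 and 17.5 in ABTr3 and 8.63 and 16.1 in ABTr4. The libraries of ABTr4 were the lowest of all, with a pass in the blocked fit (-1.30, adjusted p = 0.032), and the mean difference was 0.09 ± 0.41, adjusted p = 0.91. ANKRD37, a small ankyrin-repeat gene sharing exon bases with UFSP2, stayed between 0.462 and 3.14 CPM in all libraries, log2 0.38 ± 0.44, adjusted p = 0.61.

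**Figure D3:**
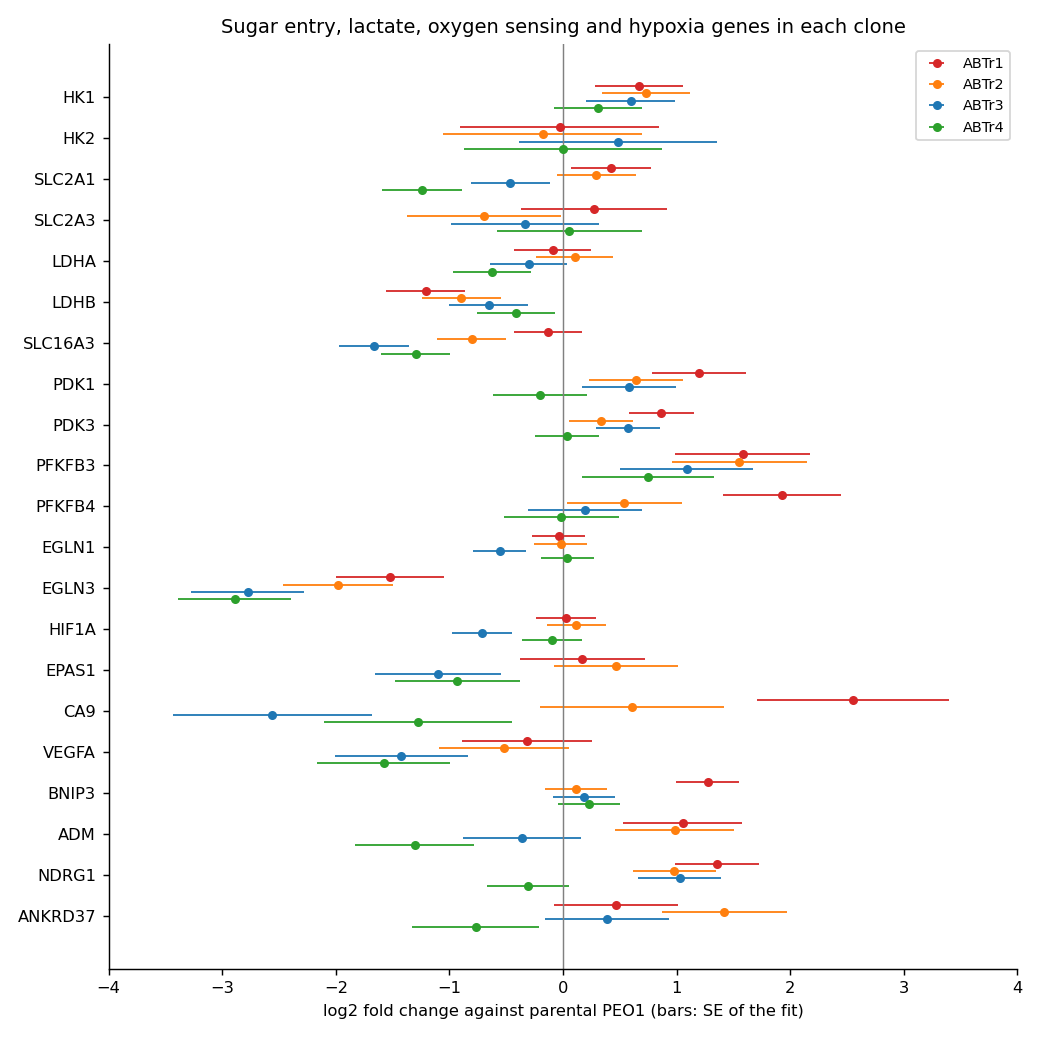
Log2 fold change of each clone against parental PEO1 for the genes of sugar entry, pyruvate and lactate, fructose 2,6-bisphosphate, oxygen sensing and hypoxia targets, with points for the estimate and bars for its SE from the edgeR fit. EGLN3 lies left of 0 in all 4 clones, and CA9 lies at 2.55 in ABTr1 and -2.56 in ABTr3.

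Each clone was compared with the same parental libraries, so the following counts share their controls. In ABTr1, 3 of the 33 genes passed, PFKL, ENO2 and BNIP3, all higher, beside 9.77% of all tested genes (5.48% higher, 4.29% lower). In ABTr2, PFKL and ENO2 were higher and EGLN3 lower, beside 6.11% of all genes (3.31% higher, 2.81% lower). In ABTr3, ENO2 was higher and GAPDH, SLC16A3 and EGLN3 were lower, beside 7.37% (3.48% higher, 3.89% lower). In ABTr4, SLC16A3 and EGLN3 were lower, beside 9.71% (4.46% higher, 5.25% lower). GAPDH in ABTr3 was lost without any one of the 10 libraries, with adjusted p up to 0.19. With the replicate block the counts were 15, 8, 10 and 9 of 33, against 30.1%, 22.1%, 22.6% and 27.0% of all genes. The median log2 difference from parental over the 33 genes was 0.42 in ABTr1, 0.32 in ABTr2, -0.10 in ABTr3 and -0.12 in ABTr4, against 0.01, 0.02, 0.06 and 0.04 over all genes.

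Set against each other, ABTr1 carried the highest clone mean in 20 of the 33 genes and ABTr4 the lowest in 17. Of the 33, 29 were higher in ABTr1 than in the average of the other 3 clones, 25 in ABTr2, 8 in ABTr3 and 8 in ABTr4. How often all genes ranked this way was not counted. Over the 33, the median log2 difference from the other 3 clones was 0.48, 0.19, -0.21 and -0.43 for ABTr1 to ABTr4. Over all genes it was 0.01, 0.01, 0.02 and 0.01. None passed in any of these comparisons in edgeR's quasi-likelihood test, where 0.0121% of all genes passed for ABTr1 and 0 genes for the others. At an unadjusted p under 0.05 there were 12, 4, 5 and 7 of the 33 for ABTr1 to ABTr4, beside 8.27%, 3.00%, 4.07% and 5.23% of all genes. DESeq2 called 5, 0, 2 and 3 of the 33, beside 1.14%, 0.109%, 0.443% and 1.06% of the genes it gave an adjusted p. No gene of the 33 was called by limma-voom, which called 0.0121% of all genes for ABTr1 and 0 for the others. With the block, ABTr1 was higher than the other clones in PFKL, SLC16A3, PFKFB4, CA9 and BNIP3 (2.97% of all genes passed, 2.27% as higher), and ABTr4 lower in ADM (0.546%, 0.509% as lower). A test of any difference among the 4 clones called 0 of 33 in edgeR (0.00606% of all genes), with 11 at an unadjusted p under 0.05 (5.30% of all genes), 8 by DESeq2 (1.79%) and 0 by limma-voom (0 of all genes). SLC16A3 and CA9 passed that test with the block (0.843% of all genes).

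Within each library, the share of an isozyme in the length-corrected reads of its family does not depend on library scaling. Of the enolases ENO1 and ENO2 together, ENO2 made up 1.32% and 1.13% in parental libraries, 4.67% and 3.22% in ABTr1, 3.63% and 2.97% in ABTr2, 4.52% and 3.11% in ABTr3 and 2.57% and 2.71% in ABTr4. Every clone library was above both parental ones, with means of 1.22% ± 0.133 (SD, n = 2 libraries) in parental cells and 3.43% ± 0.594 (SD, n = 4 clones) in the clones. Of EGLN1 and EGLN3 together, EGLN3 supplied 31.8% and 42.5% in parental libraries, 22.6% and 12.3% in ABTr1, 12.7% and 13.8% in ABTr2, 16.6% and 6.26% in ABTr3 and 7.03% and 7.38% in ABTr4. The means were 37.1% ± 7.60 (SD, n = 2 libraries) and 12.3% ± 4.24 (SD, n = 4 clones), and no clone library reached the lower parental one. Of LDHA and LDHB together, LDHB supplied 37.3% and 39.5% in parental libraries, 20.6% and 24.3% in ABTr1, 27.7% and 19.0% in ABTr2, 33.8% and 31.3% in ABTr3 and 43.2% and 39.6% in ABTr4. The LDHB share was low in ABTr1 and ABTr2 and above both parental libraries in ABTr4, with means of 38.4% ± 1.55 and 29.9% ± 8.91. HK2 supplied 21.9% and 20.0% of the 2 hexokinases in parental libraries, and a mean of 15.0% ± 3.33 in the clones. By library it was 17.2% and 9.64% in ABTr1, 16.2% and 6.56% in ABTr2, 25.7% and 12.3% in ABTr3 and 21.9% and 10.7% in ABTr4. The share was thus lower in replicate 2 of each clone, and replicate 1 of ABTr3 was above both parental libraries. An exact two-sided permutation test of 4 clone means against 2 parental libraries cannot go below p = 0.0667, and so cannot pass 0.05. It gave 0.0667 for ENO2, EGLN3 and ALDOC, 0.133 for HK2 and 0.267 for LDHB, and all 11 shares had an adjusted p of 0.245 or more. The other shares, with raw p from 0.467 to 1.0, were PFKP and PFKM of the phosphofructokinases, SLC2A3, PDK3, PFKFB4 and EPAS1 of HIF1A and EPAS1.

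**Figure D4:**
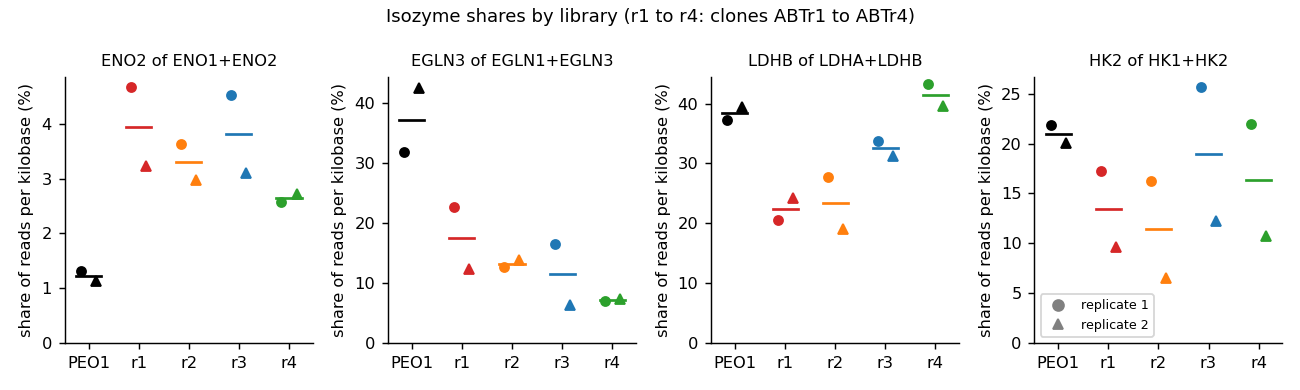
Share, in percent of reads per kilobase, of ENO2, EGLN3, LDHB and HK2 in their isozyme pairs in each library, with circles for replicate 1, triangles for replicate 2 and a line at the mean of a group. The ENO2 share lies at 1.13 to 1.32% in parental and 2.57 to 4.67% in clone libraries, and the EGLN3 share at 31.8 to 42.5% and 6.25 to 22.6%.

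Several of these genes differed by replicate number in a fit that takes the same shift for every group. Replicate 2 against replicate 1, with group means in the fit, called 5 of the 33 (15.2%) in edgeR's quasi-likelihood test, and 30.3% of all genes. All 5 were lower in replicate 2, as were 14.8% of all genes. HK2 showed the largest difference of the 5, log2 -1.60 ± 0.15, adjusted p = 0.00053, a 3.03-fold lower level in replicate 2. It was followed by PFKFB3 (log2 -0.93 ± 0.18, adjusted p = 0.0044), HK1 (log2 -0.58 ± 0.13, adjusted p = 0.009), LDHB (log2 -0.45 ± 0.12, adjusted p = 0.022) and PFKP (log2 -0.33 ± 0.11, adjusted p = 0.048). PFKFB3 was nearly level in parental cells (30.7 and 29.4 CPM) and lower in replicate 2 of each clone, so 1 shift does not describe all its groups. Replicate 1 was above replicate 2 in all 5 groups for 8 of the 33 genes, and this was not counted over all genes. LDHB was lost without either library of ABTr2 or ABTr4, with adjusted p up to 0.11, and PFKP under every alternative, up to 0.16. The labels do not say what the replicate number stands for, and what it stands for was not tested.

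**Figure D5:**
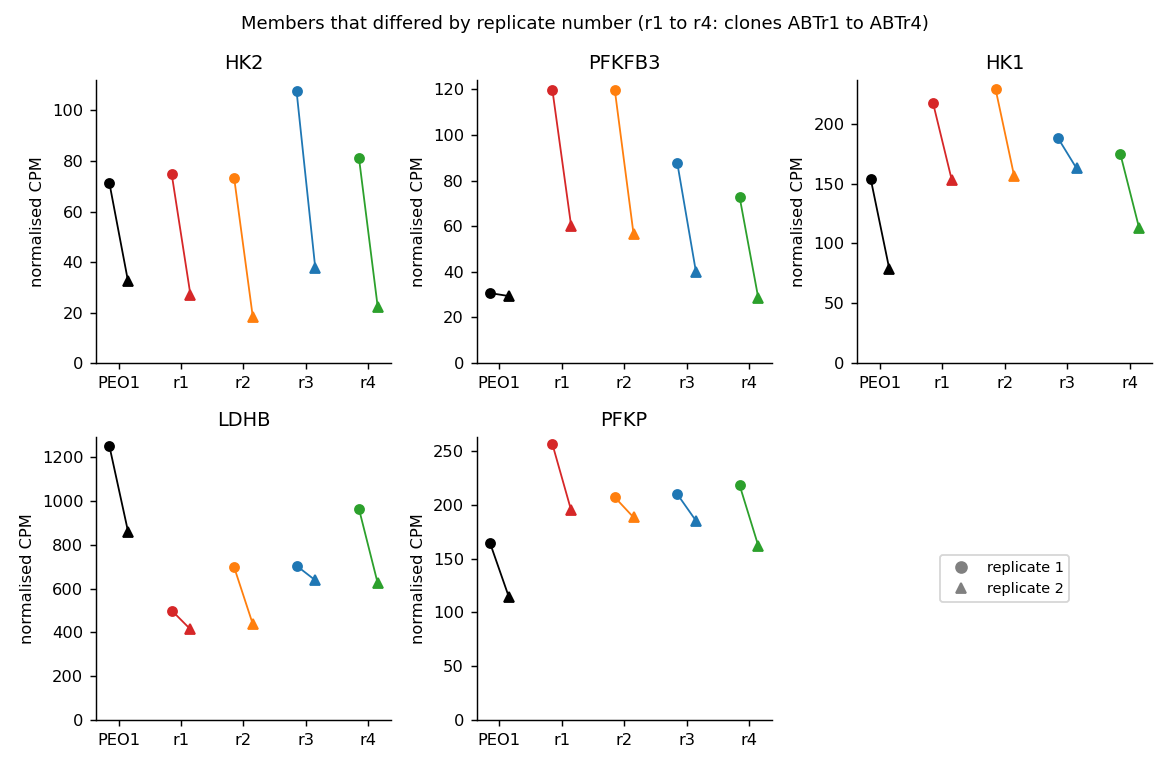
Normalised CPM of the genes that differed by replicate number, 1 panel per gene, with replicate 1 (circle) and replicate 2 (triangle) of a group joined by a line and r1 to r4 for ABTr1 to ABTr4. HK2 falls from 71.4 to 32.4 CPM in parental cells and from 108 to 37.7 in ABTr3, and PFKFB3 is level in parental cells (30.7 and 29.4) and falls in each clone.

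Other genes of the same pathways were read from lists written from general knowledge. Of 28 further hypoxia-induced genes, all tested, 5 rose and 4 fell, with a median log2 difference of 0.36, beside 7.17% higher and 8.79% lower of all genes. With the block 9 rose and 5 fell, beside 16.3% and 18.2% of all genes. LOXL2, which cross-links collagen, went from 16.2 ± 6.30 CPM in PEO1 (SD, n = 2 libraries) to 352 ± 108 (SD, n = 4 clones) in the clones (log2 4.38 ± 0.43, adjusted p = 0.00056). TMEM45A, a membrane protein, went from 2.54 ± 1.24 CPM in PEO1 (SD, n = 2 libraries) to 16.9 ± 3.90 (SD, n = 4 clones) in the clones (log2 2.69 ± 0.50, adjusted p = 0.0091), and P4HA1, a collagen prolyl hydroxylase, from 18.8 ± 2.21 CPM in PEO1 (SD, n = 2 libraries) to 53.0 ± 22.4 (SD, n = 4 clones) in the clones (2.64-fold, adjusted p = 0.014). ERO1L, an oxidase of the endoplasmic reticulum, fell from 189 ± 20.8 CPM in PEO1 (SD, n = 2 libraries) to 98.8 ± 20.9 (SD, n = 4 clones) in the clones (log2 -0.96 ± 0.20, adjusted p = 0.015). Without parental replicate 2 the adjusted p was 0.082 for TMEM45A, 0.082 for P4HA1 and 0.13 for ERO1L, and without parental replicate 1 it was 0.086 for P4HA1. The others that passed, named to complete the count after their values were seen, were BHLHE41 and WSB1, which rose, and DDIT4, STC2 and RAB20, which fell. They passed under 12, 3, 9, 11 and 6 of the 14 alternatives, and without parental replicate 2 the log2 difference was -1.24 for DDIT4 and -0.46 for STC2, adjusted p = 0.35 and 0.6.

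Of 14 partners and regulators of HIF, VHL and ARNT2 rose and the rest did not pass, beside 7.17% higher and 8.79% lower of all genes. With the block 2 rose and 0 fell, beside 16.3% and 18.2% of all genes. VHL, the substrate receptor of the ligase that destroys HIF, was at 124 and 115 CPM in PEO1, 693 and 840.1 in ABTr1, 333 and 609 in ABTr2, 221 and 566 in ABTr3 and 337 and 514 in ABTr4. All 8 clone libraries were above both parental ones, a 4.15-fold higher level in the fit (log2 2.05 ± 0.43, adjusted p = 0.014), with an adjusted p of 0.069 without parental replicate 1 and 0.11 without parental replicate 2. ARNT2, a HIF dimerisation partner, went from 11.5 ± 7.07 CPM in PEO1 (SD, n = 2 libraries) to 27.3 ± 2.76 (SD, n = 4 clones) in the clones (log2 1.24 ± 0.36, adjusted p = 0.048), and passed under 6 of 14 alternatives, with adjusted p up to 0.23.

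Of 24 other genes of sugar transport, glycolysis and lactate, 18 were tested, with a median log2 difference of 0.18, and with the block 5 rose and 3 fell, again beside 16.3% and 18.2% of all genes. PFKFB2, a cardiac-type kinase of fructose 2,6-bisphosphate, fell from 35.1 ± 5.49 CPM in PEO1 (SD, n = 2 libraries) to 17.9 ± 3.00 (SD, n = 4 clones) in the clones (log2 -0.98 ± 0.27, adjusted p = 0.041), and PFKFB1, read at few counts, rose from a mean of 0.163 to 0.773 CPM (log2 2.10 ± 0.54, adjusted p = 0.032). These calls held under 7 and 6 of 14 alternatives, with adjusted p up to 0.21 and 0.18. Of 13 genes of pyruvate entry into mitochondria, CS, the citrate synthase that opens the citric acid cycle, fell from 388 ± 91.6 CPM in PEO1 (SD, n = 2 libraries) to 185 ± 22.0 (SD, n = 4 clones) in the clones (log2 -1.07 ± 0.23, adjusted p = 0.017; -0.85, adjusted p = 0.13, without parental replicate 1). The list's median was -0.40, and 6 of the 13 passed as lower with the block, beside 18.2% of all genes. Of 7 tested pentose phosphate genes TKT, transketolase, fell (log2 -0.87 ± 0.23, adjusted p = 0.038), as 3 of the 7 did with the block, beside the same 18.2%. This call held under 7 of 14 alternatives, with adjusted p up to 0.29. The median of this list was -0.37. Of the genes of gluconeogenesis and glycogen, FBP1, fructose 1,6-bisphosphatase, fell (log2 -3.23 ± 0.74, adjusted p = 0.021). FBP1 was at 3.47 and 17.9 CPM in PEO1, and without parental replicate 2 its difference was -1.62, adjusted p = 0.35.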

How the data were processed

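Counts per gene were used as deposited by the authors for 10 libraries, 2 for each of 5 groups. The submitters' processing notes name TopHat2 2.0.14, featureCounts 1.4.6 (Subread) and the build hg19. The deposited gene lengths gave the per-length values, which carry no TMM factors. Per the labels' protocols, the kit took polyadenylated RNA, and how strand and multiply matching reads were handled is not given in the sources used here. Totals of 20640602 to 55488566 reads per library set the counting precision.

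Genes were filtered with filterByExpr of edgeR 4.0.16 in R 4.3.3, which left 16490. TMM scaling and quasi-likelihood tests used group means with 5 residual degrees of freedom, or 4 with the replicate block, and adjusted p-values by Benjamini-Hochberg over these genes, with a call at an adjusted p under 0.05. Each log2 fold change is given ± its SE, and the mean of the clones weights clones equally on the log scale. Alternatives were DESeq2 1.42.0, limma-voom (limma 3.58.1), no filter, the block, and leaving out each library. The scripts were tested on simulated data. Replicate numbers were taken to pair libraries because same-numbered libraries deviated together in all 10 pairs of groups (correlations 0.28 to 0.731, all over 0.1). The 2 libraries of each group did not duplicate each other, and libraries of different groups were not checked for this.

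The genes and lists were chosen with earlier results of these data known. All 34 genes are named, and of each other list up to 4 genes with the smallest adjusted p that passed in the mean of the clones, plus the markers EPCAM, PAX8, PTPRC, DCN and PECAM1. One gene that this rule names is not reported here. Mesothelial markers summed to 88.7 to 222 CPM in parental and 48.0 to 193 in clone libraries, and MSLN made up most of this sum. Of the 4 markers, LRRN4 was called higher in the mean of the clones, from a mean of 0.547 to 10.4 CPM. UPK3B was called lower, from 15.8 to 1.40 CPM, and MSLN and CALB2 were not called. These 4 were named after their values were seen. Promoters are RefSeq's in GRCh38.p14, and gene positions in hg19 are those of the count table. Exact permutation tests compared isozyme shares.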

Additional observations from a re-analysis of the deposited data

Results flagged for a closer look

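In the fit with the replicate block, 2 of the 33 genes differed among the 4 clones in edgeR's quasi-likelihood test: SLC16A3, the lactate exporter, with an adjusted p of 0.043, and CA9, carbonic anhydrase IX, with 0.046. Without the block the same test gave 0.63 and 0.50. SLC16A3 stayed near the parental level in ABTr1 and was lowest in ABTr3, and CA9 was highest in ABTr1 and lowest in ABTr3, at under 1 CPM.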

How the results depend on the processing

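With the replicate block the number of the 33 genes called was 12 for the mean of the clones, 15, 8, 10 and 9 for ABTr1 to ABTr4 against parental, 5 and 1 for ABTr1 and ABTr4 against the other 3 clones, and 2 for any difference among the clones. With DESeq2 it was 10 for ABTr1 and 8 for ABTr4 against parental, 5, 2 and 3 for ABTr1, ABTr3 and ABTr4 against the others, and 8 for any difference. With no filter it was 6 for ABTr1 and 4 for ABTr4 against parental and 1 for ABTr1 against the others. Leaving out single libraries gave 1 to 6 calls in the mean of the clones, where parental replicate 2 gave the 1 and ABTr1 replicate 2 gave 3. It gave 0 to 4 for ABTr1, 0 to 1 for ABTr2, 0 to 3 for ABTr3, 0 to 4 for ABTr4, 3 to 6 for the replicate number, 0 in each comparison among the clones, and 1 to 4 isozyme shares higher in the clones. Calls over all genes moved between these fits too, so these counts alone are not a trait of the 33 genes. In the mean of the clones 2631 of 16490 genes were called, 5699 with the block, 4072 with DESeq2 and 2839 of 21716 with no filter. For single clones against parental the shares of all genes with DESeq2 or no filter are not given. The cause was not tested.

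The mean difference of HK2 was -0.074 with the block and -0.052 with limma-voom, and that of CA9 0.023 with limma-voom. The sign of 12 mean differences, none of them called, turned when single libraries were left out: HK2 (-0.40 to 0.72), PFKM (-0.024 to 0.82), ALDOA (-0.058 to 0.13), TPI1 (-0.40 to 0.015), ENO1 (-0.14 to 0.58), LDHA (-0.53 to 0.11), SLC2A3 (-0.58 to 0.26), CA9 (-0.90 to 1.39), VEGFA (-1.58 to 0.024), HIF1A (-0.41 to 0.079), ADM (-0.36 to 0.66) and PAX8 (-0.23 to 0.49). No called gene changed its sign under any alternative run. With 2 libraries per group, a fit that leaves one out takes the lone library to vary like the other groups. Genes under 1 CPM, among them SLC2A3 and ALDOC, are limited by their counts.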
